A study of Mus musculus with 1111 samples.

Results

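The 9 tetraspanin genes *Cd9*, *Cd63*, *Cd81*, *Cd82*, *Cd37*, *Cd53*, *Cd151*, *Tspan3* and *Tspan4* were followed in single mouse microglia, out of 35583 genes in the count tables. They were taken by symbol from a fixed list, and each symbol stood on 1 gene. The microglia came from the brains of mice aged 3 months, 20 hours after an injection of plasma proteins coupled to NHS-Atto647N, a fluorescent dye. Cells were sorted by the plasma signal they carried into plasma none, plasma low and plasma high, and each sorted cell gave 1 Smart-seq2 library, a full-length cDNA method. The labels give no strain, sex, animal or dose. All 3 groups, plasma none included, are from the injected mice, so no uninjected cell is in the comparison. After a filter of at least 50000 reads in genes and 500 genes per cell, 987 cells remained, of which 35.1% were plasma none, 35.6% plasma low and 29.4% (290 cells) plasma high.

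Tetraspanins are small proteins that cross the membrane several times and gather integrins, immunoglobulin-family proteins, proteases and each other into membrane microdomains. They help to sort cargo along the endocytic route, and *Cd9*, *Cd63* and *Cd81* products are the usual surface markers of extracellular vesicles. In macrophage-lineage cells such as microglia they take part in adhesion, migration, fusion and traffic to the lysosome.

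Since the labels tie no cell to a mouse, a group is 1 sample of cells and no p-value is given. Each title also has TH 1, TH 2 or TH 3, without saying what this stands for. It was used as a set of wells, and every error below is the SD over these sets (n = 3) unless another is named, which is not a spread between mice. Levels are CPM, the reads of a gene scaled to a fixed total of reads in all genes, from the summed reads of the cells of 1 group and 1 TH number. Ratios are log2 ratios of CPM with a pseudocount of 1 CPM, taken within a TH number and averaged over the 3. A gene met the 2-fold rule when its mean ratio was 1 or more in size on this scale and all 3 TH numbers shared 1 sign.

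The sums held 21309816 to 49323522 reads. All 8 microglia markers were read, with a summed level of 44428 to 51767 CPM over the 9 sums. All markers on the neutrophil list (5) and on the lymphocyte list (6) were at 0, as were 6 of 8 for border-associated macrophages and 3 of 5 for monocytes. The border-associated macrophage list summed to 0.217 to 1.34 CPM for plasma none, 2.64 to 22.2 for plasma low and 0 to 4.50 for plasma high. The neuron list reached at most 0.646, 4.88 and 58.1 CPM in these groups. The part of these lists in the results below was not tested. The oligodendrocyte list summed to 21.2 to 68.9 CPM for plasma none, to 28.6 to 60.9 for plasma low and to 56.4 to 83.4 for plasma high, with *Mog* at 0, and its part in the results below was not tested. In each TH number the median depth of plasma high exceeded that of plasma none (228822 to 404743 against 175699 to 277222 reads per cell), and so was the median mitochondrial share (0.751 to 1.15% against 0.548 to 0.659%). In every TH number the labels place plasma none within plate columns 1 to 8, plasma low within 9 to 16 and plasma high within 17 to 24, so plate position and group cannot be told apart.

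The promoter windows of *Cd81* and *Cd53* are printed because these were the highest members per kilobase and differ widely in base composition. Both are from RefSeq windows of 250 bases on GRCm38.p6, read 5′ to 3′ on the gene's strand, with CG dinucleotides in capitals. Bases past the gene start in the GENCODE annotation are not printed, which leaves out the last 11 of the *Cd81* window and 0 of the *Cd53* window.
Cd81, chr7:143052500-143052738, plus strand: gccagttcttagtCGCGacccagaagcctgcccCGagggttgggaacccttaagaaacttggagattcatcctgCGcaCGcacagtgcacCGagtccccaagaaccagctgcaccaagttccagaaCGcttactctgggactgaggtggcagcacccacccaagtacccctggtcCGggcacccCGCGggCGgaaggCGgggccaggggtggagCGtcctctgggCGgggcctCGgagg
Cd53, chr3:106790150-106790399, minus strand: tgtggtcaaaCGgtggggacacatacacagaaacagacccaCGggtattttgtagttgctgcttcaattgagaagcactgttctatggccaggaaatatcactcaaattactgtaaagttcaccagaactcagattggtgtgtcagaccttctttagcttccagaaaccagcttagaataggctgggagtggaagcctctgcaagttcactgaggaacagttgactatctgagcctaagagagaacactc
In the 250 bases before the RefSeq start, *Cd81* had 65.6% G and C and 16 CG pairs. *Cd53* had 45.2% and 2, the fewest CG pairs of the 14 windows listed for the 9 members. Over 32851 such windows of all genes the median was 6 CG pairs, and 76.5% of windows had 16 or fewer while 29% had 2 or fewer. The letters GGGCGG, searched on both strands, stood 3 times in the full 250 bases of the *Cd81* window, not all within the printed bases. They were in 32.7% of all windows. They were not in the *Cd53* window, which held the letters GAGGAA once, as did 23.3% of all windows at least once. These are matches of letters only.

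Several members share their locus with another gene, which matters because the use of strand in the counting is not given in the sources used here. *Cd81* (chr7:143052739-143067934, plus strand) overlaps *R74862*, a noncoding transcript on the opposite strand (chr7:143021784-143053686), over 3.6% of the exonic length of *Cd81*. The printed *Cd81* window lies inside *R74862*. *Cd9* (chr6:125460266-125494791, minus strand) overlaps *Gm26728* (chr6:125494424-125509135, plus strand) over 10.7% of its exonic bases. For none, low and high in turn, *R74862* was counted at 82.3, 91.1 and 100.3 CPM and *Gm26728* at 143.2, 155.8 and 145.8 CPM. Without strand, reads of the shared bases cannot be assigned to either gene of a pair. *Tspan4* shares 13.4% of its exonic bases with *Chid1* and *Cd151* shares 7.0% with *Gm10575*, while *Cd53*, *Cd63* and *Tspan3* overlap no other gene.

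Microglia carried 3 tetraspanin transcripts at far higher levels than the other 6. Per kilobase of exon, the mean over the 9 sums was 1879 CPM for *Cd81* (1508 to 2461), 1193 for *Cd53* (1006 to 1620) and 1025 for *Cd9* (827 to 1278). The ranges of these 3 overlap between neighbours in the order. *Cd37* came next at 143.5 CPM per kilobase (99.5 to 184.9), with no overlap with *Cd9*. *Cd63* stood at 99.5, *Tspan4* at 84.2, *Cd82* at 57.8 and *Tspan3* at 48.1, each overlapping its neighbour in range. *Cd151* was lowest at 13 CPM per kilobase (5.29 to 22.2), below every sum of *Tspan3*. By CPM, *Cd81* was the 14th most abundant of all genes in these cells.

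**Figure D1:**
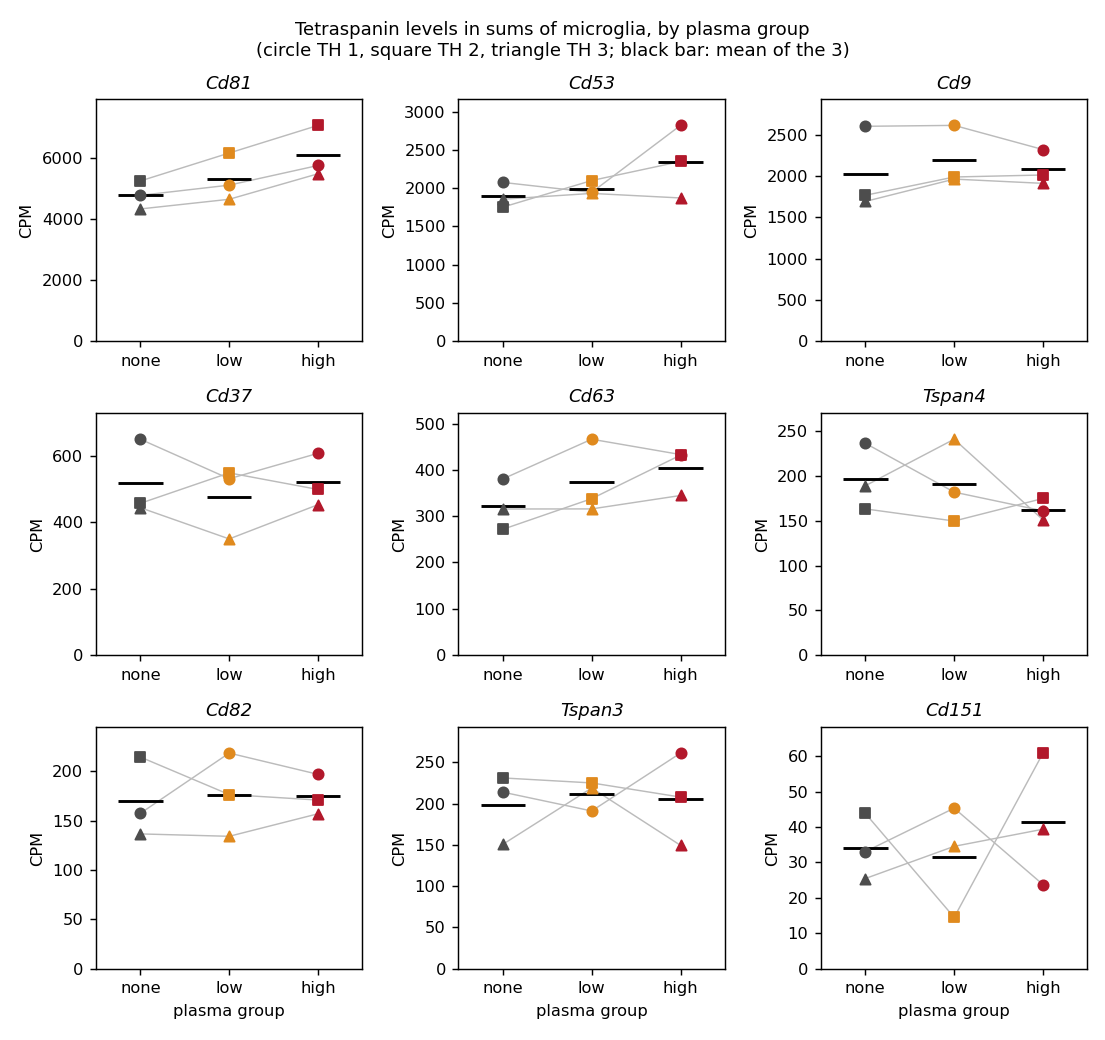
CPM of each tetraspanin (vertical axes, from 0, scaled per gene) in plasma none, low and high; circles, squares and triangles are TH 1, 2 and 3, grey lines join 1 TH number and black bars are means. All 3 lines climb from none to low to high for Cd81, while for the other genes at least 1 line turns.

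*Cd81*, which pairs with immunoglobulin-family partners at the cell surface and on vesicles, was the member whose level followed the plasma signal. Its level was 4787, 5260 and 4341 CPM in TH 1, 2 and 3 of plasma none. It was 5123, 6178 and 4658 CPM for plasma low, and 5769, 7086 and 5497 CPM for plasma high. Each TH number therefore ran from none through low to high, and every plasma high sum was above every plasma none sum. The mean log2 ratio of high over none was 0.35 ± 0.081, a 1.27-fold difference, with 0.27, 0.43 and 0.34 in TH 1, 2 and 3. Low over none gave 0.14 ± 0.076 and high over low 0.20 ± 0.034, each above 0 in 3 of 3 TH numbers but with overlapping groups. No other member kept the order none, low, high in 3 of 3 TH numbers, which 2.15% of 5123 genes did, and 4.8% of the 791 genes with at least 200 CPM. Groups that do not overlap, with plasma high above plasma none, were found for 8.51% of 5534 genes, and for 12% of the 806 genes with at least 200 CPM. The sum of all 9 members was higher by less on the same scale, 0.25 ± 0.095, from 10150 ± 994 CPM (none) to 12054 ± 1297 (high), and *Cd81* made up 47.4% and 50.8% of it.

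The difference in *Cd81* was found over nearly the whole range of cells. A read was found in 99.4% of plasma none cells, 99.1% of plasma low cells and 99.7% of plasma high cells, so the number of cells with the transcript did not separate the groups. Over single cells, the 5th percentile was 1069, 1797 and 2152 CPM for none, low and high. The median was 4434, 5046 and 5804 CPM, and the 95th percentile 9055, 10601 and 11228 CPM. All 3 percentiles thus stand in the order of the plasma signal, with the widest fold between groups among the low cells. At the 1st percentile plasma low was above plasma high, and the highest single cell was in plasma none (20848 against 17019 CPM in plasma high). The median cell stood in the order none, low, high within each TH number (4422, 4744 and 5451 CPM in TH 1). The coefficient of variation between cells was 0.54, 0.52 and 0.48. Within the sets of 1 group and 1 TH number, the *Cd81* count at an equal 50000 reads had a rank correlation with the cell's depth of −0.037 in the median (−0.18 to 0.13).

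**Figure D2:**
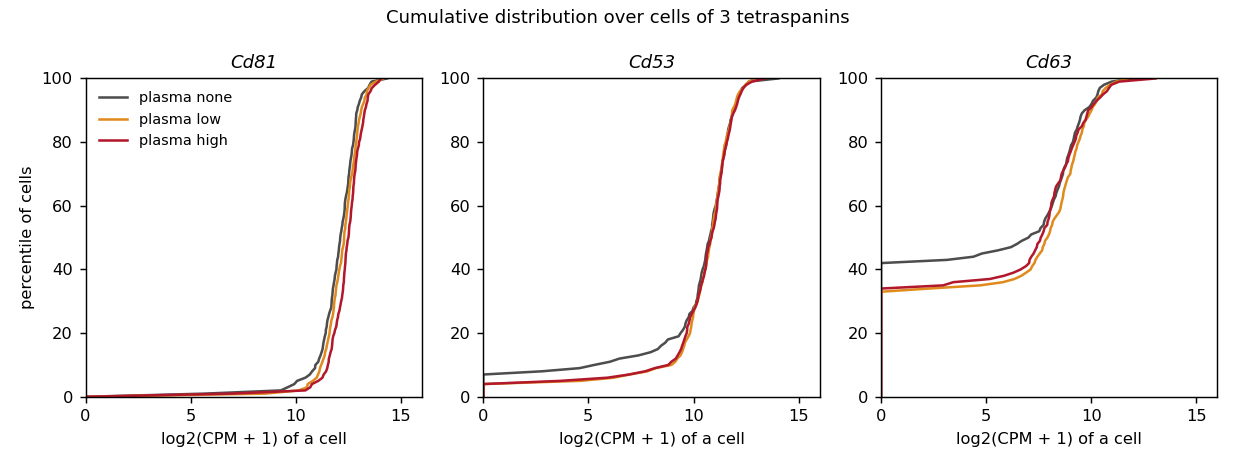
Share of cells at or below a given level (vertical axis, percentile of cells) against log2(CPM + 1) of a cell for Cd81, Cd53 and Cd63 in plasma none, low and high. The Cd81 curves stand in the order none, low, high at the 5th, 50th and 95th percentile, furthest apart among the low cells, with medians of 4434, 5046 and 5804 CPM; the Cd53 curves lie close together above the lowest cells, with medians of 1738, 1812 and 1854 CPM; the Cd63 curves start at different shares of cells without a read.

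*Cd9*, the close relative of *Cd81* that shares many of its partners, showed no such order. TH 1, 2 and 3 held 2601, 1766 and 1691 CPM for plasma none. They held 2613, 1987 and 1962 CPM for plasma low and 2320, 2012 and 1910 for plasma high. TH 1 was highest in every group, and the plasma groups overlapped throughout. High over none gave a log2 ratio of 0.066 ± 0.20, below 0 in TH 1. Plasma low was above plasma none in 3 of 3 TH numbers, by 0.13 ± 0.11, of which TH 1 gave 0.0061. For none, low and high in turn, 92.5%, 95.4% and 94.1% of cells had a read.

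The leukocyte tetraspanins *Cd53* and *Cd37*, which organise receptors on blood-derived immune cells, differed from each other in level per kilobase far more than between groups. *Cd53* stood at 2076, 1752 and 1856 CPM in TH 1, 2 and 3 of plasma none, at 1945, 2100 and 1932 in those of plasma low, and at 2822, 2349 and 1872 in those of plasma high. Plasma high was above plasma none in 3 of 3 TH numbers, by 0.29 ± 0.24, but by 0.013 in TH 3. In plasma high 1 cell of TH 2 held 6.84% of all *Cd53* reads, at 9462 CPM against a median cell of 1854. Leaving the top cell out of each sum, the mean ratio was 0.16 and plasma high was above plasma none in 2 of 3 TH numbers. With every cell weighted equally it was 0.056, and the median cell was higher in plasma high in 1 of 3 TH numbers. The *Cd37* sums were 651, 458 and 445 CPM (none), 532, 550 and 350 (low) and 609, 500 and 454 (high). Its high over none log2 ratio was 0.019 ± 0.11, the smallest of the 9.

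*Cd63*, the tetraspanin of late endosomes, multivesicular bodies and lysosomes, was read in more cells of both plasma groups than of plasma none. The share of cells with a read was 60.3%, 58.4% and 54.7% in TH 1, 2 and 3 of plasma none. It was 72.03%, 69.2% and 57.8% for plasma low, and 67.3%, 64.6% and 63.4% for plasma high. Within each TH number both plasma groups were above plasma none, as for 23.6% of 5210 genes. Plasma high was above every plasma none value, as for 20.8% of 5534 genes. More genes were read per cell in the plasma groups in general, with a median of 1708, 1994 and 1943 genes for none, low and high, and 1544, 1793 and 1741.5 at an equal 50000 reads per cell. The part of this in the *Cd63* difference was not tested. With every cell thinned to 50000 reads, plasma low exceeded plasma none by 8.82 ± 2.80 percentage points and plasma high exceeded it by 6.75 ± 3.17 points, again in 3 of 3 TH numbers, where the median over all genes tested was 3.02 and 2.53 points and 21.3% of genes were above plasma none in both groups. At this depth *Cd9*, *Cd63* and *Tspan4* were read in more cells of plasma high than of plasma none in 3 of 3 TH numbers, 3 of 9 beside 35.4% of all genes. For plasma low against plasma none these were *Cd63*, *Cd37* and *Cd53*, 3 of 9 beside 39% of all genes, so neither count stands above that of genes in general. Over all cells the *Cd63* shares were 57.8% (exact 95% binomial interval 52.4 to 63.1%), 66.4% (61.2 to 71.3%) and 65.2% (59.4 to 70.6%), intervals that cover counting error only. Levels of *Cd63* in TH 1, 2 and 3 were 380.6, 271.6 and 315.6 CPM (none), 466.4, 337.9 and 315.8 (low) and 433.3, 432.04 and 344.8 (high). The log2 ratio to plasma none was 0.33 ± 0.30 for plasma high and 0.20 ± 0.17 for plasma low, positive in 3 of 3 TH numbers in both. TH 2 gave 0.67 for plasma high and without it the mean was 0.16, and TH 3 gave 0.00083 for plasma low. Between plasma high and plasma low the sign differed among TH numbers (0.12 ± 0.23). The median cell of plasma high was below that of plasma none in TH 1 (168.98 against 246.9 CPM) and above it in TH 2 and TH 3. *Cd82*, another tetraspanin of the surface and endolysosomal membranes, had sums of 157.5, 214.6 and 136.7 CPM (none), 218.6, 176.6 and 134.3 (low) and 197.03, 170.97 and 157.1 (high). Its log2 ratio of high over none was 0.065 ± 0.34.

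**Figure D3:**
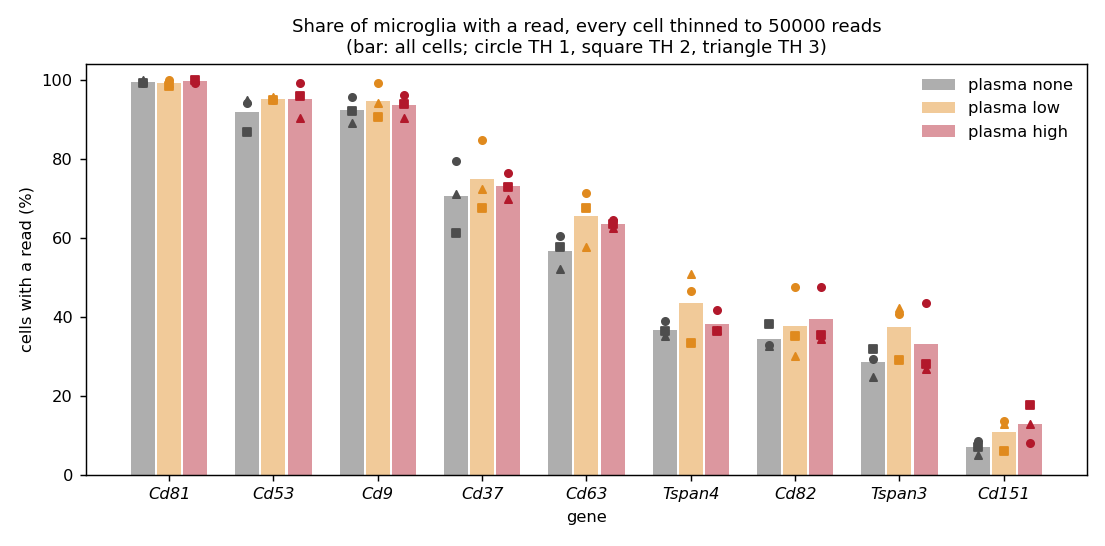
Percentage of cells with a read of each tetraspanin (vertical axis) after thinning every cell to 50000 reads; bars are all cells of plasma none, low and high, and points are TH 1, 2 and 3. Cd81 is near the top of the scale in all groups, and the Cd63 bars stand at 56.6%, 65.5% and 63.4%.

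The remaining members showed no ratio that kept 1 sign in 3 of 3 TH numbers in any comparison. *Tspan4*, known for its part in forming migrasomes on the trailing fibres of migrating cells, had the lowest mean ratio of high over none. Its sums were 236.8, 163.4 and 189.2 CPM (none), 182.1, 149.8 and 241.3 (low) and 161.2, 175.03 and 151.1 (high), a log2 ratio of −0.26 ± 0.33. *Tspan3*, a widely expressed member, had 213.8, 231.04 and 150.6 CPM (none), 191.04, 224.98 and 218.9 (low) and 261.1, 207.8 and 149.4 (high), a log2 ratio of 0.041 ± 0.22. *Cd151*, the partner of laminin-binding integrins, had 33.1, 43.9 and 25.5 CPM (none), 45.3, 14.5 and 34.5 (low) and 23.8, 60.9 and 39.4 (high). Reads were found in 6.94% of none cells, 11.1% of low cells and 13.1% of high cells, and in plasma none a single cell held 11.8% of its reads. Its ratio of plasma high to plasma low was 0.43 ± 1.47, from −0.90 in TH 1 to 2.00 in TH 2, with both signs among the TH numbers. *Tspan4*, *Cd82* and *Tspan3* were read in 28.9% to 45.01% of the cells of a group.

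All 9 members passed the level filter (a mean CPM of 20 or more, and reads in 10% or more of the cells of 1 group) in all 3 comparisons, and 0 met the 2-fold rule in any of them. The rule was met by 5.15% of the 5534 genes tested between plasma high and plasma none, 2.64% of 5489 between plasma low and plasma none, and 3.28% of 5709 between plasma high and plasma low. Members higher in 3 of 3 TH numbers were *Cd81*, *Cd63* and *Cd53* in plasma high against plasma none, 3 of 9 beside 18.8% of all genes. All 3 were among the 6 members with at least 200 CPM, where 25.4% of genes were. They were *Cd81*, *Cd63* and *Cd9* in plasma low against plasma none, 3 of 9 beside 16.7% of all genes. In plasma high against plasma low *Cd81* alone was, 1 of 9 beside 14.1% of all genes. Members lower in 3 of 3 numbered 0 in each comparison, beside 13.8%, 11.8% and 13.1% of all genes in the same order. The median log2 ratio of the members was 0.066, 0.075 and 0.12 in these comparisons, beside 0.054, 0.049 and 0.0056 over all genes tested. The comparisons share groups and are not independent of each other.

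**Figure D4:**
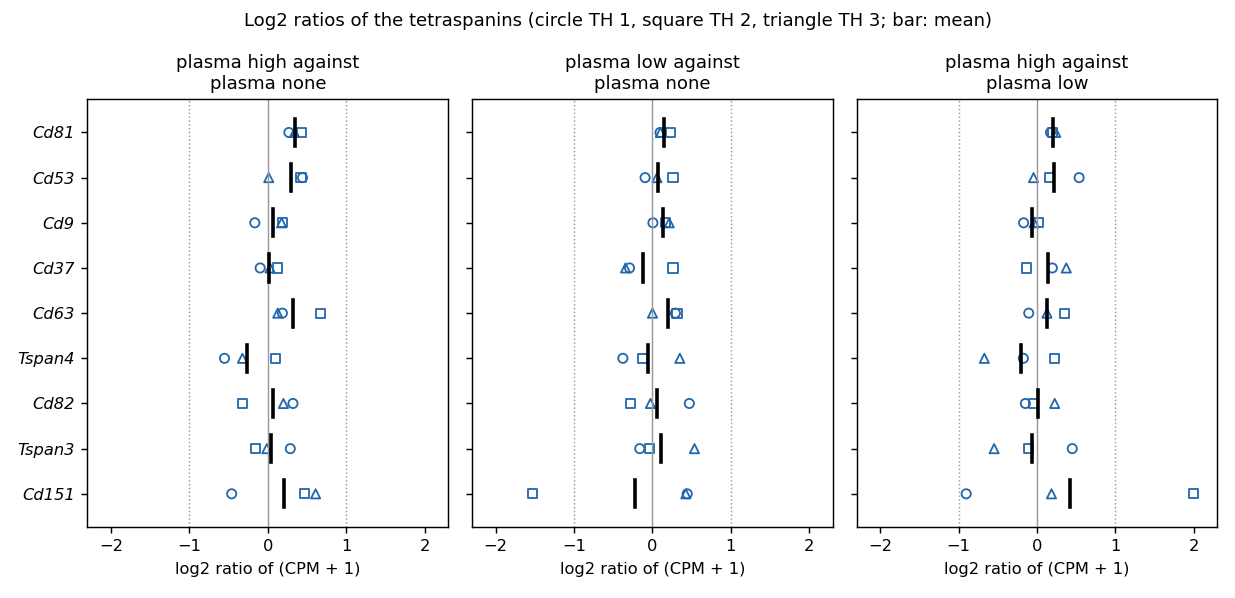
Log2 ratios of CPM + 1 (horizontal axes) for each tetraspanin in the 3 comparisons; circles, squares and triangles are TH 1, 2 and 3, bars are means and dotted lines mark the 2-fold size. The 3 Cd81 points lie close together and right of 0 in every panel, while the Cd151 points of plasma high against plasma low run from −0.90 to 2.00.

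Single cells carried a changing mix of the 9 transcripts. The mean number of members read per cell was 5.22 ± 0.16 (none), 5.66 ± 0.39 (low) and 5.60 ± 0.29 (high), and at an equal 50000 reads 5.17 ± 0.18, 5.59 ± 0.38 and 5.48 ± 0.26, beside the greater number of genes of all kinds per cell given above. All 9 were read in 0, 2 and 2 cells. Across cells, Spearman correlations of thinned counts were computed within each set of 1 group and 1 TH number, whose cells share group and plate region. The median rho of the 36 pairs ran from −0.084 to 0.11. Only *Cd9* with *Cd63* (0.11, 0.017 to 0.32 over the 9 sets) and *Cd9* with *Cd81* (0.11, −0.034 to 0.25) were above 0.1, and correlations this weak in sparse counts are no finding.

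Each member read in at least 50% of cells was also set against 2080 genes by the same measure. The gene most like *Cd81* was *R74862* (rho 0.66) and the gene most like *Cd9* was *Gm26728* (0.88), the same opposite-strand genes whose exons overlap theirs. After *R74862*, *Cd81* went with *C1qc*, a chain of complement C1q (0.34, 0.11 to 0.35 over the 9 sets), and *Ctss*, the lysosomal protease cathepsin S (0.33, 0.19 to 0.42). After *Gm26728*, *Cd9* went with the cathepsin genes *Ctsz* (0.20, −0.026 to 0.35) and *Ctsd* (0.20, 0.056 to 0.38). *Cd63* went with *Ctsb*, the gene of cathepsin B (0.22, 0.067 to 0.30), the predicted gene *Gm49369* (0.21, 0.069 to 0.39) and *Mdh2*, a malate dehydrogenase (0.17, −0.10 to 0.32). *Cd53* had *Fuca2*, *P2ry12* and *Rogdi* at 0.12 to 0.13, and *Cd37* had *Gm45234*, *Fli1* and *Dusp3* at 0.14 to 0.16. Each of these 6 was below 0 in at least 1 of the 9 sets, as were *Ctsz* with *Cd9* and *Mdh2* with *Cd63*. Values this low, the highest of 2080, are no finding. The other genes named were also picked as the highest of 2080 by this same rho, and no link to them was tested.

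Of 22 other tetraspanin genes in the tables, 14 had a read and 6 passed the level filter in plasma high against plasma none. These were *Tspan14* (313.7 CPM over the 9 sums), *Tspan13* (305.8), *Tspan31* (223.3), *Tspan7* (203.4), *Upk1b* (74.1) and *Tspan18* (38.2). None of the 6 was higher in plasma high in 3 of 3 TH numbers, beside 18.8% of all genes. Of the 6, *Upk1b*, a uroplakin, was lower in 3 of 3 (−0.71 ± 0.88), beside 13.8% of all genes. *Tspan13* had 363.1 ± 68.4 CPM (none), 291.5 ± 51.9 (low) and 262.8 ± 39.01 (high), with high over none above 0 in TH 2. The median ratio of the 6 was −0.053, where that of the 9 members was 0.066 and that of all genes tested 0.054.

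Of 18 genes for tetraspanin partners in the tables, 10 passed the level filter, 2 were higher and 2 lower in 3 of 3 TH numbers of plasma high against plasma none, and 0 met the 2-fold rule. The 2 higher, named after their values were seen, were *Itgam* (0.41 ± 0.14) and *Itgb2* (0.39 ± 0.14), the chains of the integrin that serves as complement receptor 3. The 2 largest rises in mean ratio, *Itgb1* (0.47 ± 0.42) and *Adam17* (0.44 ± 0.60), had a TH number below 0 each. The 2 lower were *Cd47*, the "do not eat" signal (−0.38 ± 0.17), and *Adam10*, the sheddase whose traffic several tetraspanins guide (−0.11 ± 0.12). The median of the 10 was 0.27, beside 0.054 over all genes tested, and 18.8% of all genes were higher and 13.8% lower in 3 of 3.

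Of 21 genes for exosome release and multivesicular bodies, 16 passed the level filter. In plasma high against plasma none 3 of the 16 were higher in 3 of 3 TH numbers, a share near the 18.8% of all genes, 1 was lower, beside 13.8%, and 0 met the 2-fold rule. The 3 higher, again named after their values were seen, were *Lamp1* (0.34 ± 0.094) and *Lamp2* (0.30 ± 0.21), abundant lysosomal membrane proteins, and *Sdcbp*, the gene of syntenin, which binds the tail of CD63 (0.43 ± 0.23). For none, low and high, *Lamp1* stood at 1357, 1621 and 1729 CPM. The largest mean ratios, of *Pdcd6ip* (0.65 ± 0.96) and *Stam* (0.60 ± 2.01), did not keep 1 sign. *Chmp2a* of the ESCRT-III machinery was lower (−0.37 ± 0.34, with −0.0016 in TH 1), and *Flot1* had −0.20 ± 0.39 with both signs. The median of the 16 was 0.13, beside the same 0.054.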

How the data were processed

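Smart-seq2 libraries of 1045 of 1111 labelled microglia were matched to a column by well and TH number; the other 66 were not analysed here. Per the file headers, the deposited values are read counts per gene and cell, and for TH 2 and TH 3, not TH 1, the names speak of alignments kept as top hits. The deposited values of every cell column are taken for an estimated count per feature, since 2 features average 2 probes, and were rounded. Per the submitters' processing notes the tools included STAR 2.5.3a and the build was mm10; how reads were counted, and whether by strand, is not given in the sources used here. Of 35583 gene IDs, 35546 were in GENCODE M21, 99.58% of them with the same coordinates.

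Cells with under 50000 reads in genes or under 500 genes were left out. Reads were summed by group and TH number and scaled with TMM (edgeR 4.0.16, R 4.3.3). Wells held single sorted cells, so no doublet caller was run. The ratio code was tested on simulated data. Named genes were the 9 members, up to 6 other tetraspanins by level, the 2 largest rises and falls of each list, and the 3 genes most like each member. The members and lists were chosen with earlier results of these data known. Alternatives covered scaling, DESeq2 1.42.0 size factors included, cell and gene filters, pseudocount, weighting of cells, pooling and leaving out each TH number.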

Additional observations from a re-analysis of the deposited data

How the results depend on the processing

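*Cd81* kept the order none, low, high in 3 of 3 TH numbers, and plasma high clear of plasma none, under all 9 alternatives that keep the 3 TH numbers, with a mean log2 ratio of high over none of 0.30 to 0.39 over all 13 alternatives. For *Cd53* and *Cd63*, plasma high exceeded plasma none in 3 of 3 TH numbers under 6 of the 9; their mean ratios ran from 0.056 to 0.43 and from 0.16 to 0.43. No scaling moved the median of all genes by more than 0.1 on the log2 scale. The 1 cell with at least 3 oligodendrocyte markers was left out in an alternative chosen after seeing the data, and no count of members changed.

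For plasma high against plasma none, members with 1 sign in 3 of 3 numbered 1 without the top cell of each sum and 1 with the mean of per-cell CPM, and the members' median was 0.024 with library size scaling. For plasma low against plasma none, 1 member kept 1 sign with DESeq2 size factors. Without the replicate block, pooling the reads of the 3 TH numbers, 5.02% of genes tested met the 2-fold rule in plasma high against plasma low, and the members' medians were 0.078, 0.11 and 0.077 in the 3 comparisons. Genes meeting the 2-fold rule, 5.15%, 2.64% and 3.28% of those tested, were 8.35%, 6.56% and 6.81% with no filter on low values, and 1.117%, 0.128% and 0.250% at a mean of at least 200 CPM, in the order high against none, low against none, high against low.

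Leaving out 1 TH number gave 8.23% to 10.9%, 5.52% to 6.79% and 6.85% to 7.70% of genes meeting the rule in the same order. Members with 1 sign in the 2 left numbered 3 to 7, 5 in each case and 3 to 4, and the members' median ran from 0.014 to 0.18, 0.084 to 0.16 and 0.010 to 0.12. The share of all genes with 1 sign in 2 TH numbers was not counted, so these counts are no result about the members. Without TH 1, 1 member (*Cd151*) met the 2-fold rule in plasma high against plasma low, with 0 without TH 2 or TH 3. *Cd151* had the fewest reads of the 9 members in each group, 2723 to 4349.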

Other observations

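The coefficient of variation between cells in plasma none was 0.54 for *Cd81*, 0.79 for *Cd9* and 0.84 for *Cd53*, against 1.55 for *Cd63* and 4.53 for *Cd151*. For *Cd81*, *Cd82*, *Cd151*, *Tspan3* and *Cd53* the value was lower in both plasma groups than in plasma none. The share of all genes lower in this way was not counted, so this is no result about tetraspanins. Median depth was 207429, 229931 and 267143 reads per cell for none, low and high, and its part here was not tested. *Cd63* had 1.55, 1.30 and 2.07 for none, low and high, where the highest single cell stood at 4103, 3400 and 8528 CPM.

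*Tspan9*, a tetraspanin named here after its values were seen, was read in 7.40% of cells and did not pass the level filter in any comparison. It stood at 16.9 ± 9.67 CPM (none), 42.8 ± 24.5 (low) and 36.5 ± 16.02 (high), with both plasma groups above plasma none in 3 of 3 TH numbers. Of the genes that passed the filter, 18.8% were higher in plasma high and 16.7% in plasma low in 3 of 3. The share higher in both was not counted.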
